A study of Mus musculus with 6 samples.

Results

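The genes that flank Hdac2 on mouse chromosome 10 were followed in RNA of dorsal root ganglia, which house the cell bodies of sensory neurons next to the spinal cord. They are 10 named neighbours in the stretch from about 34 to 40 Mb of mm10, chosen by position and name, with Hdac2 itself left out. All 10 were found by their Ensembl identifiers among 54532 gene rows, and all 10 passed the filter on low values. Bulk RNA-seq was available for 6 libraries from C57BL/6 mice aged 8 weeks. In 3 libraries the mice carried floxed Hdac2 alleles together with Cre recombinase under the Advillin promoter (genotype label Adv-Cre+/hdac2-flop++, here Hdac2 cKO). The other 3 came from littermates without Cre (genotype label hdac2-flop++, here WT), which per the labels carry the floxed alleles as well. The Cre driver is active in primary sensory neurons, so the other cells of a ganglion keep Hdac2. No library carried Cre without floxed Hdac2, so effects of Cre and of Hdac2 loss cannot be told apart. The sources used here do not say whether a library held 1 mouse or several, so the p-values speak only to variation among these libraries.

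A floxed gene is deleted when Cre joins its loxP sites, and DNA close to the engineered allele is inherited with it. Regulatory elements of a gene can also lie in or beside its neighbours. Levels of the flanking genes are therefore commonly read beside a conditional deletion, to see whether a difference is limited to the targeted gene. Per the labels both groups here carry the floxed alleles, so this comparison cannot show effects of DNA inherited with them. HDAC2 is a histone deacetylase that removes acetyl groups from histone tails as part of repressor complexes. The Advillin gene Avil, whose promoter drives Cre, also lies on chromosome 10, 90.0 Mb downstream of Hdac2.

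The nearest neighbours with appreciable reads are Marcks and Hs3st5, one on each side of Hdac2. Marcks (ENSMUSG00000069662, chromosome 10, 37133375 to 37138920, minus strand) lies 131 kb downstream of the Hdac2 gene body. Hs3st5 (ENSMUSG00000044499, 36506814 to 36834397, plus strand) ends 140.1 kb upstream of it. Lama4 (ENSMUSG00000019846, 38965515 to 39110188) and Fyn (ENSMUSG00000019843, 39368855 to 39565381) follow downstream on the plus strand, at gaps of 1.96 and 2.37 Mb. The other 6 lie upstream at gaps of 2.36 to 2.77 Mb: Frk (ENSMUSG00000019779, 34483399 to 34611278), Nt5dc1 (ENSMUSG00000039480, 34288288 to 34418552), Col10a1 (ENSMUSG00000039462, 34389981 to 34397085), Tspyl4 (ENSMUSG00000039485, 34297442 to 34301320), Tspyl1 (ENSMUSG00000047514, 34282190 to 34285275) and Dse (ENSMUSG00000039497, 34151393 to 34207715). Nt5dc1 and Dse are on the minus strand and the rest of the upstream genes on the plus strand. Col10a1 and Tspyl4 lie inside the span of Nt5dc1 on the opposite strand. The exons of Col10a1 and Nt5dc1 shared 18 bases and those of Tspyl4 and Nt5dc1 shared 0. The antisense gene Gm47512 covered 37.8% of the Tspyl4 exon bases and was listed at 2.98 normalised read counts at most. Reads within the 1466 shared bases, of 2946 exon bases of Gm47512, cannot be assigned to either gene without strand.

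The promoters of 4 of these genes are shown because they span the range of levels and of CpG content around the locus. Each line holds the 250 bases before the RefSeq transcription start (GRCm38.p6, the assembly of mm10), read 5′ to 3′ on the gene's strand, with every CpG in capitals. Hdac2 is the targeted gene (chr10:36974294-36974543), Hs3st5 the upstream neighbour (chr10:36506557-36506806), Tspyl1 one of the most highly expressed neighbours (chr10:34281940-34282189) and Frk the one with the lowest level per length (chr10:34483150-34483399), all on the plus strand.
Hdac2: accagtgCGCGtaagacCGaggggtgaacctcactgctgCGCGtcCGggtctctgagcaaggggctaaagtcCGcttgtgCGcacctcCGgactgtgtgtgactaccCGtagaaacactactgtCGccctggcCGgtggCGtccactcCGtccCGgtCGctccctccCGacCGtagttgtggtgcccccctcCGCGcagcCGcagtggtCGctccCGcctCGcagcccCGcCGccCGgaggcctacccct
Hs3st5: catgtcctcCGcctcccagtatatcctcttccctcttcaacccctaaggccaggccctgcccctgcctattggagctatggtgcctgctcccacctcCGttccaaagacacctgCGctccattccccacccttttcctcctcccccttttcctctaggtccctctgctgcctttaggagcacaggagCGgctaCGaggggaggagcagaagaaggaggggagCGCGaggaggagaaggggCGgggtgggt
Tspyl1: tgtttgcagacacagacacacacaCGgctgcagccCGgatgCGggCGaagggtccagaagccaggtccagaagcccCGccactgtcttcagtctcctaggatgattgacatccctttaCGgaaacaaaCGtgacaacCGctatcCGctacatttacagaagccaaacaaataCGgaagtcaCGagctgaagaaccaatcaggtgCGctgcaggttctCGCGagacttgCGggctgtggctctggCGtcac
Frk: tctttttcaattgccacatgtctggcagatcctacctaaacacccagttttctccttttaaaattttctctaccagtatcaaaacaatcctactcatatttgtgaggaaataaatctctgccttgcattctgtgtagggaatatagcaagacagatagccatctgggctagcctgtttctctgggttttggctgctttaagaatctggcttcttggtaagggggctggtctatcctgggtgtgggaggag

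The Hdac2 promoter held 27 CpG, more than 91.4% of the 32851 RefSeq promoters of the same length, whose median was 6. Of the 10 flanking genes 8 had a promoter in the table, and Marcks and Lama4 were not matched. Dse held 25 CpG, Fyn 21, Tspyl1 and Nt5dc1 16 each, Tspyl4 9, Hs3st5 8 and Col10a1 5. The Frk promoter held 0 CpG, as did 7.87% of all promoters. The letters TATAAA, searched on both strands, were in the Col10a1 promoter alone among the 8 and in 12.4% of all promoters. CpG number did not follow the order of levels per length: Frk and Col10a1 were lowest in both, but Tspyl4, the highest in level, held 9 and Dse, far lower in level, held 25. The annotated starts of Fyn and Dse in RefSeq and GENCODE differed by 944 and 480 bases, so other starts may be in use.

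Libraries differed in depth and in more than genotype. Reads assigned to genes ranged from 18943595 to 42070531 per library. WT 3 was the highest or the lowest of the 6 libraries for 71.4% of the 18410 genes tested, and its array weight, limma's estimate of a library's reliability, was 0.101 against 4.17 for WT 2. Among genes with few reads the share of even counts was 42.4% in WT 2 and 60.2 to 64.4% in the other libraries. Y-linked reads marked WT 2, WT 3 and Hdac2 cKO 2 as male, and sex is not in the labels. Levels are given as normalised read counts, meaning reads after division by the size factor of the library, in the order of the replicate numbers. A log2 fold change is the knockout mean minus the WT mean of log2 (value + 1), so that of a gene with few reads, or with a library at 0, depends on the added 1. Neuronal markers were present throughout: the 15 markers of neurons summed to 511405 to 756878 normalised read counts in WT and to 527561 to 703090 in Hdac2 cKO, and none was at 0. A bulk value cannot tell fewer cells of a type from less RNA per cell.

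Hdac2 (ENSMUSG00000019777, 36974544 to 37001889) gives the size of the targeted change. It measured 2816, 1715 and 3498 normalised read counts across WT 1 to 3, against 499, 371.5 and 535 across Hdac2 cKO 1 to 3. Its log2 fold change was -2.47 (SE 0.31). DESeq2 called it (adjusted p = 1.8e-08), as did limma with array weights (adjusted p = 0.0017). Limma without weights did not (adjusted p = 0.927), nor did edgeR (adjusted p = 0.975). Avil measured 15684, 17149 and 11996 across WT 1 to 3, against 10125, 9369 and 8201 across Hdac2 cKO 1 to 3, without overlap. Groups did not overlap for 8.54% of all genes tested. The log2 fold change of Avil was -0.68 (SE 0.21). It was not called by limma (adjusted p = 0.927), DESeq2 (adjusted p = 0.411) or edgeR (adjusted p = 0.975). Limma with array weights called it (adjusted p = 0.012), among 3.08% of all genes called that way.

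None of the 10 flanking genes passed the test. By limma 0 of 10 had an adjusted p under 0.05, beside 0% of the 18410 genes tested, and 0 of 10 had an unadjusted p under 0.05, beside 1.85% (0.875% higher and 0.978% lower). DESeq2 called 0 of the 10, beside 0.136% of all genes, and edgeR 0, beside 0%. The smallest adjusted p among the 10 was 0.927 by limma, 0.993 by DESeq2 and 0.975 by edgeR. The limma value was also the smallest over all genes tested. Limma and edgeR called 0 genes in all, Hdac2 included, so their 0 of 10 cannot set the neighbours apart from other genes. Log2 fold changes ranged from -0.35 for Marcks to 1.36 for Col10a1, with 6 above 0 and 4 below. Their median was 0.12, beside 0.06 over all genes tested. Groups did not overlap for 1 of the 10, Hs3st5, which was higher in Hdac2 cKO. Over all genes 8.54% did not overlap, made up of 4.63% of genes higher and 3.91% lower in Hdac2 cKO, so 1 in 10 is near the background.

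**Figure D1:**
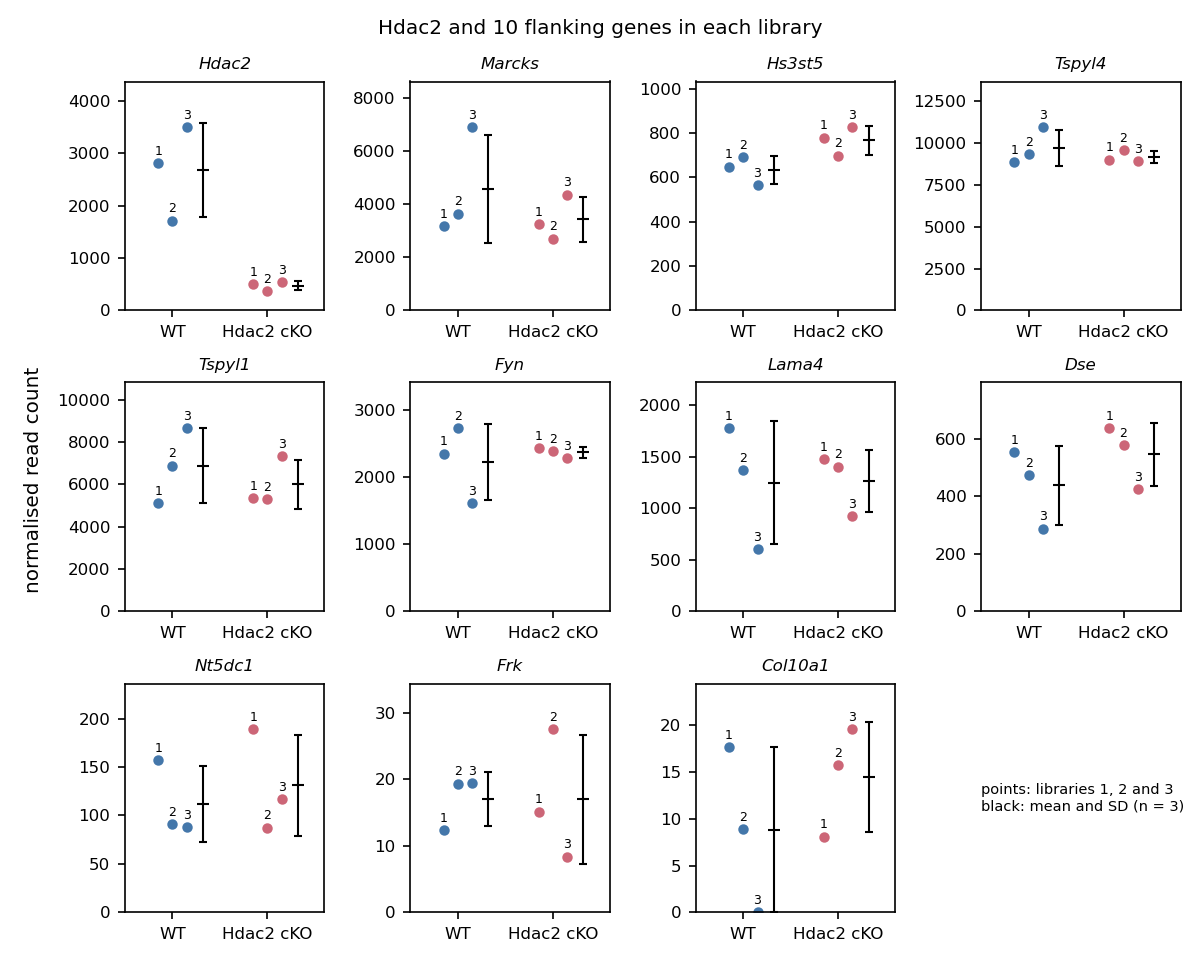
Normalised read counts of Hdac2 and the 10 flanking genes in WT (blue) and Hdac2 cKO (red) libraries, numbered 1 to 3, each panel with its own axis from 0; black marks show the mean and SD (n = 3). Hdac2 stands at 371.5 to 535 in Hdac2 cKO against 1715 to 3498 in WT, while the groups overlap for 9 of the 10 flanking genes.

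Marcks encodes a substrate of protein kinase C that links the plasma membrane to actin and is abundant in neurons. It measured 3184, 3645 and 6909 normalised read counts across WT 1 to 3, against 3249, 2705 and 4363 across Hdac2 cKO 1 to 3. WT 3 was far above the other WT libraries, and the groups overlapped. The means were 4580 ± 2031 and 3439 ± 845 (SD, n = 3 each). The log2 fold change was -0.35 (SE 0.34), with a 95% confidence interval from -1.15 to 0.44. Without WT 3 it was -0.01 and without WT 1 it was -0.57.

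Hs3st5 encodes a sulfotransferase that adds a late sulfate group to heparan sulfate chains on cell surfaces. It measured 648, 691 and 565 across WT 1 to 3, against 779, 698 and 826 across Hdac2 cKO 1 to 3. Every knockout library was above every WT library, though Hdac2 cKO 2 exceeded WT 2 by little. The means were 635 ± 63.8 and 768 ± 64.8 (SD, n = 3 each). With 3 libraries a side the lowest attainable two-sided p is 0.1, and the exact permutation test returned p = 0.1. The log2 fold change was 0.28 (SE 0.21), with an interval from -0.21 to 0.76, and it lay between 0.19 and 0.34 with each library left out in turn. It was 0.14 without both libraries numbered 3 and 0.11 with array weights, neither past the threshold.

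Tspyl4 and Tspyl1 are intron-poor relatives of the nucleosome assembly proteins, which handle histones, and had the highest levels among the 10. Tspyl4 measured 8841, 9351 and 10941 normalised read counts across WT 1 to 3, against 9004, 9557 and 8929 across Hdac2 cKO 1 to 3. Values varied little, with a coefficient of variation of 11.3% in WT and 3.74% in Hdac2 cKO, and the groups overlapped. Its log2 fold change was -0.08 (SE 0.18), with an interval from -0.51 to 0.35, and it was 0.011 without WT 3 and -0.14 without WT 1. Tspyl1 measured 5118, 6891 and 8649 across WT 1 to 3, against 5359, 5316 and 7342 across Hdac2 cKO 1 to 3. The libraries numbered 3 were the highest in both groups, and the groups overlapped. Its log2 fold change was -0.18 (SE 0.26; interval -0.79 to 0.43) and lay at -0.00058 without WT 3 and -0.38 without WT 1. Of the 50-base windows of Tspyl1 transcripts 0 were found in another gene's transcripts, Tspyl4 included.

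Fyn and Frk encode relatives of the Src tyrosine kinase. FYN is known for phosphorylating NMDA receptor subunits at synapses, and Frk is mainly an epithelial kinase. Fyn measured 2354, 2732 and 1612 normalised read counts across WT 1 to 3, against 2439, 2392 and 2284 across Hdac2 cKO 1 to 3. WT 3 was the lowest and WT 2 the highest of the 6, with the knockout libraries close together between them. The log2 fold change of Fyn was 0.12 (SE 0.24; interval -0.44 to 0.68), and -0.10 without WT 3 and 0.28 without WT 2. Frk measured 12.4, 19.4 and 19.4 across WT 1 to 3, against 15.2, 27.5 and 8.39 across Hdac2 cKO 1 to 3, which rests on 12 to 28 reads per library. Its highest and lowest values were both in Hdac2 cKO. The interval of its log2 fold change, -1.83 to 1.59, spans more than a 2-fold change in either direction. The fit could therefore not detect a 2-fold difference in this gene.

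Lama4 and Dse belong to the extracellular matrix: the first encodes the laminin α4 chain of vessel and nerve basement membranes, the second the epimerase that makes dermatan sulfate. Lama4 measured 1774, 1367 and 604 normalised read counts across WT 1 to 3, against 1472, 1402 and 923 across Hdac2 cKO 1 to 3. The libraries numbered 3 were the lowest in both groups. The difference on the log2 scale was 0.13 (SE 0.42; interval -0.86 to 1.11), which turned to -0.33 without WT 3 and was 0.45 without WT 1. Dse measured 552, 473 and 287 across WT 1 to 3, against 637, 577 and 425 across Hdac2 cKO 1 to 3. Every knockout value was above the WT value of the same number, but the groups overlapped. For Dse the log2 fold change was 0.35 (SE 0.32; interval -0.40 to 1.10), and 0.07 without WT 3 and 0.54 without WT 1.

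Nt5dc1, of a nucleotidase family whose functions are little known, and Col10a1, the collagen X chain of hypertrophic cartilage, were low. Nt5dc1 measured 157, 90.8 and 87.9 normalised read counts across WT 1 to 3, against 189, 87.5 and 117 across Hdac2 cKO 1 to 3. The libraries numbered 1 were the highest in both groups. The log2 fold change of Nt5dc1 was 0.21 (SE 0.43) and turned to -0.09 without Hdac2 cKO 1, and was 0.47 without WT 1. Col10a1 measured 17.6, 8.93 and 0 across WT 1 to 3, against 8.08, 15.7 and 19.6 across Hdac2 cKO 1 to 3, on at most 28 reads. Its log2 fold change of 1.36 (SE 1.28) had an interval from -1.64 to 4.35 and rested on the value of 0 in WT 3. It was 0.10 without that library, 2.21 without WT 1, 0.69 with a pseudocount of 5 and 0.71 by DESeq2. The 13 cartilage and bone markers, Col10a1 included, summed to 1657 to 2181 in WT and to 1146 to 2501 in Hdac2 cKO. Of these Ihh, Bglap, Matn3 and Col10a1 itself were at 0 in at least 1 library, and their part in the Col10a1 values was not tested.

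**Figure D2:**
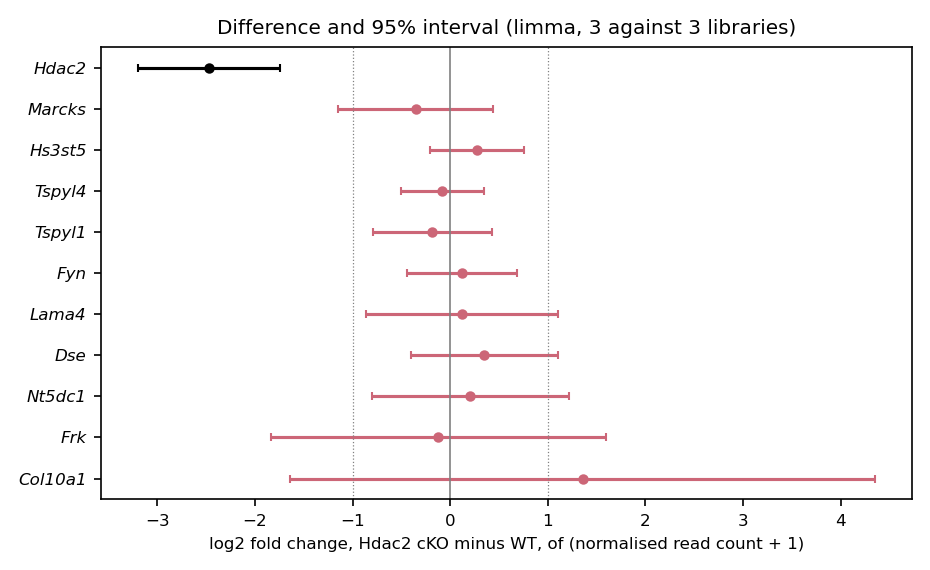
Log2 fold change (point) and 95% confidence interval (bar) of Hdac2 and each flanking gene from limma, 3 against 3 libraries; dotted lines mark a 2-fold change in either direction. The intervals of Hs3st5, Tspyl4, Tspyl1 and Fyn lie inside the dotted lines, and those of Frk and Col10a1 cross both.

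The intervals, from the fit without a term for the replicate number, show how large a difference that fit could have missed. With the term the SE fell from 0.34 to 0.21 for Marcks, 0.42 to 0.23 for Lama4 and 0.32 to 0.23 for Dse. It also fell for Nt5dc1, Tspyl1 and Fyn, and rose slightly for Hs3st5, Frk, Col10a1 and Tspyl4. Intervals with the term are not given here. All 10 intervals held 0. For Hs3st5, Tspyl4, Tspyl1 and Fyn they lay inside a 2-fold change in either direction, which held for 37.1% of all genes tested. The narrowest was that of Tspyl4, which allowed 0.704 to 1.27 times the WT level. All 10 intervals lay above the log2 fold change of Hdac2, -2.47, as did those of 90.3% of all genes. The interval of Hdac2 itself ran from -3.20 to -1.74. That of Frk, which reached down to -1.83, overlapped it.

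Ratios taken within a library do not depend on the scaling between libraries, apart from the added 1. Relative to Marcks, Hdac2 stood at log2 ratios of -0.18, -1.09 and -0.98 across WT 1 to 3, against -2.70, -2.86 and -3.03 across Hdac2 cKO 1 to 3. Relative to Hs3st5 the log2 ratios were 2.12, 1.31 and 2.63 across WT 1 to 3, against -0.64, -0.91 and -0.63 across Hdac2 cKO 1 to 3. Hdac2 thus went from above Hs3st5 in every WT library to below it in every knockout library. The ratio was lower in every knockout library than in every WT library for all 10 neighbours, and for 90% of all other genes tested. The difference in mean log2 ratio ran from -2.11 for Marcks to -3.83 for Col10a1, each with p = 0.1 in the exact two-sided permutation test, the smallest possible. All 10 ratios share the same Hdac2 values, so these are not separate tests and do not test the neighbours on their own. The Col10a1 end rested on its value of 0 in WT 3: without that library its difference was -2.35, and the 10 lay between -1.92 for Lama4 and -2.44 for Hs3st5.

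**Figure D3:**
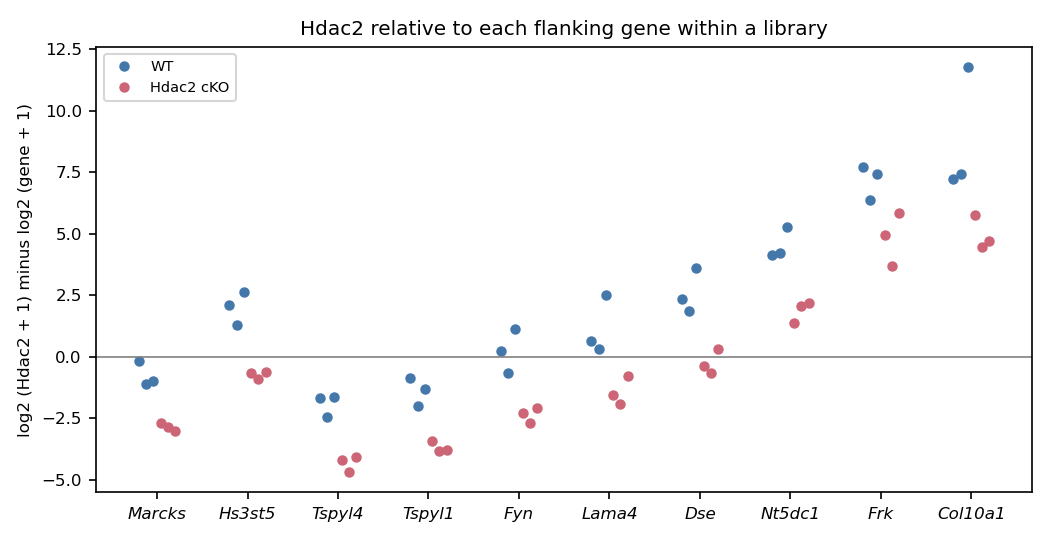
Log2 ratio of Hdac2 to each flanking gene, both plus 1, within each WT (blue) and Hdac2 cKO (red) library; points of a group stand in the order of libraries 1, 2 and 3. All red points lie below the blue points of the same gene, from -2.70 to -3.03 against -0.18 to -1.09 for Marcks.

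Per kilobase of exon, Tspyl4 and Tspyl1 had the highest levels, with means of 2433 and 2089 normalised read counts over the 6 libraries. Their ranges, 2279 to 2821 and 1658 to 2803, overlapped. Marcks followed at 990.4 (668 to 1707), which overlapped the range of Tspyl1, and then Fyn at 528 (369 to 626), which overlapped neither neighbour in the order. Hs3st5 at 162 (130.2 to 190.3), Lama4 at 104 (50.1 to 147) and Dse at 98.8 (57.7 to 128) came next, with Hs3st5 overlapping Lama4 and Lama4 overlapping Dse. Nt5dc1 at 34.7 (25.0 to 53.9) lay below the range of Dse and overlapped that of Lama4. Col10a1 at 3.73 (0 to 6.26) and Frk at 3.24 (1.597 to 5.24) were lowest and overlapped. Hdac2 ranged from 83.0 in a knockout library to 782 in a WT library on the same scale.

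Among the libraries the members fell into opposed patterns that crossed the genotype. Marcks, Tspyl1 and Tspyl4 were highest in WT 3, at log2 deviations of 0.86, 0.45 and 0.22 from their means over the 6 libraries. Lama4, Dse, Fyn, Hs3st5 and Nt5dc1 were lower in WT 3 than in most libraries, at -0.97, -0.73, -0.50, -0.30 and -0.40. WT 3 was the highest library for 3 of the 10, beside 30.5% of all genes, and the lowest for 5, beside 40.8%. Over the 6 libraries Pearson's r was 0.93 between Dse and Lama4, 0.92 between Marcks and Tspyl1 and -0.96 between Marcks and Dse. These are descriptions of 6 libraries that share WT 3 as an extreme. Markers of other cells also differed between libraries, and those of Schwann cells and muscle between the groups. The 11 myelinating Schwann cell markers, none at 0, summed to 245084 to 374120 in WT and to 143259 to 231676 in Hdac2 cKO. Of these 10 of 11 had a log2 fold change below 0, where 55.3% of all genes were above 0. In 6 of the 11 the knockouts were lower without overlap, beside 3.91% of all genes. The 8 satellite glia markers, none at 0, had their highest sum in WT 3, at 386574 against 133926 to 185292 in the other libraries. The 11 endothelial and mural markers, none at 0, summed to 11470 to 16414 in WT and to 11343 to 14605 in Hdac2 cKO. The 12 skeletal muscle markers, 1 of them at 0 in a library, all had a log2 fold change below 0, with sums of 9550 to 27316 in WT and 3529 to 6346 in Hdac2 cKO. In 10 of the 12 the knockouts were lower without overlap, so tissue content and genotype cannot be told apart here. The part of these cells in the values of Lama4, Dse and Marcks was not tested.

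**Figure D4:**
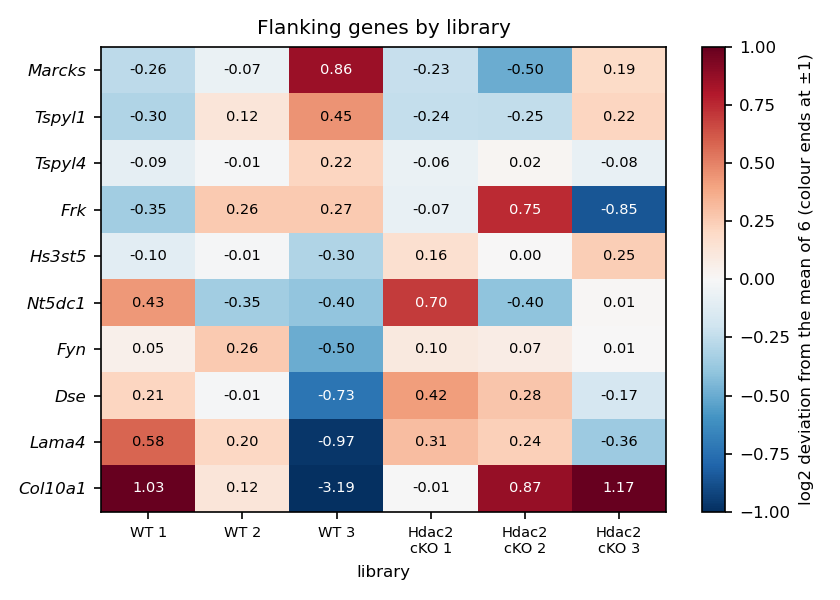
Log2 deviation of each flanking gene (rows) from its mean over the 6 libraries (columns), printed in each cell; the colour scale ends at 1 in either direction. WT 3 holds the highest value of Marcks (0.86) and the lowest of Lama4 (-0.97) and Col10a1 (-3.19).

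The rest of the window was read in the same way. The annotation places 75 genes other than Hdac2 wholly between 34 and 40 Mb, of which 65 are not among the 10. Of these 17 passed the filter, and 0 passed limma's test, beside 0% of all genes tested. With 11 log2 fold changes above 0 and 6 below, beside 55.3% of all genes above 0, their median was 0.18. Groups overlapped for all 17, beside 8.54% of all genes whose groups did not. Only 3 tested genes lay within 1 Mb of Hdac2: Marcks, Hs3st5 and the noncoding transcript 5930403N24Rik, which starts beside Marcks and had a log2 fold change of -0.31 (SE 0.73). The 24 genes at 1 to 3 Mb had a median of 0.15 and the 823 on the rest of chromosome 10 a median of 0.05. Over all 27 tested genes of the window, the 10 included, the median was 0.13. With each library left out in turn it ranged from 0.036 without WT 3 to 0.22 without WT 1. Without both libraries numbered 3 it was -0.00073.

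**Figure D5:**
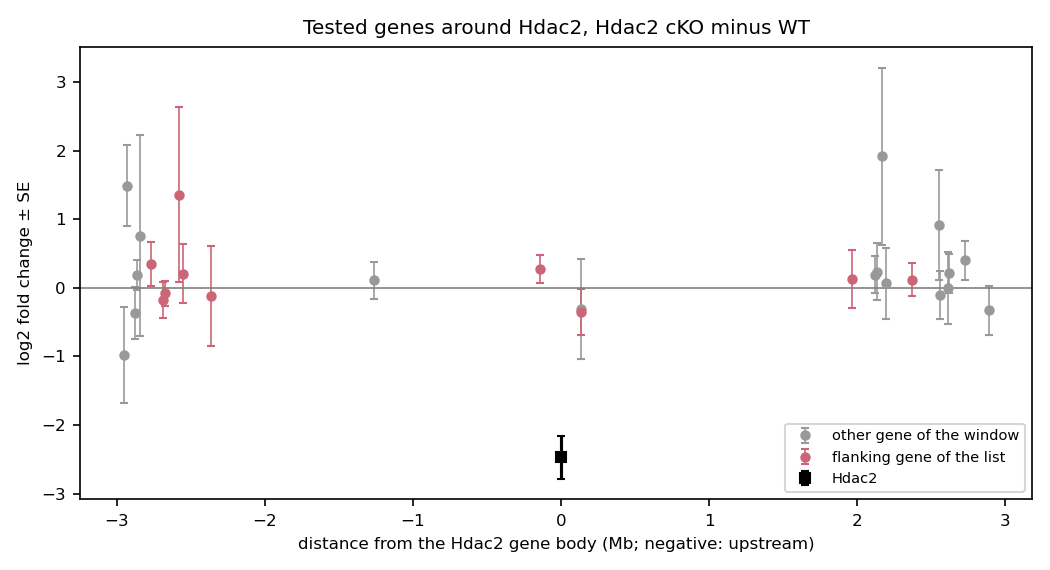
Log2 fold change ± SE of the 27 tested genes of the window against the gap between gene bodies and Hdac2, upstream as negative; red, the 10 flanking genes; grey, the 17 others; black square, Hdac2 at -2.47. Apart from Hdac2 the genes scatter around 0 on both sides.

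Of the 17, Calhm4, of a family of calcium homeostasis modulator channels, had the smallest p. It measured 119, 65.5 and 27.6 normalised read counts across WT 1 to 3, against 216, 210.3 and 109 across Hdac2 cKO 1 to 3. Hdac2 cKO 3 lay below WT 1, so the groups overlapped. The log2 fold change was 1.49 (SE 0.59; limma unadjusted p = 0.0387, adjusted p = 0.927) and 0.94 without WT 3. Weighting libraries by their estimated reliability made it a call (adjusted p = 0.032), among 3.08% of all genes called that way. Calhm4 lies 2.93 Mb upstream of Hdac2, inside the span of Trappc3l on the opposite strand, and shares 0 exon bases with it. The next smallest p among the higher ones were those of the lincRNA D030034A15Rik, with a log2 fold change of 1.92 (SE 1.29), and Rev3l, the catalytic subunit of DNA polymerase zeta, with 0.40 (SE 0.29). D030034A15Rik was at 0 in WT 3 and its value was 0.74 without that library, 2.74 without WT 1 and 1.17 with a pseudocount of 5. Rev3l was at 0.24 without WT 2 and 0.68 without WT 1. Among those lower they were the antisense transcript Gm48045 at -0.98 (SE 0.70), Calhm5 at -0.37 (SE 0.38) and the transporter gene Mfsd4b4 at -0.33 (SE 0.35). With single libraries left out, Gm48045 ranged from -1.50 without Hdac2 cKO 3 to -0.49 without WT 3, Calhm5 from -0.63 without WT 3 to -0.10 without Hdac2 cKO 3, and Mfsd4b4 from -0.57 without WT 2 to -0.0021 without WT 3.

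Relatives of the flanking genes elsewhere in the genome gave 0 calls by limma in each of 7 lists, which contain the flanking genes themselves. Limma called 0% of the 18410 genes tested, Hdac2 among them, so these counts cannot set the lists apart from other genes. Of 13 Src family and related kinases 7 were above 0 and 6 below, with a median of 0.00. Of 25 heparan and dermatan sulfate enzymes 19 were above 0 and 6 below, with a median of 0.33. In that list Extl1, a glycosyltransferase, had the smallest p: it measured 329, 275 and 260 across WT 1 to 3, against 187, 144 and 141 across Hdac2 cKO 1 to 3 without overlap, a log2 fold change of -0.87 (SE 0.28). Of 11 laminin chains 5 were above 0 and 6 below, with a median of -0.05. Lamb1, a laminin β chain, averaged 3785 ± 462 against 2474 ± 270.5 in the knockouts (SD, n = 3 each) without overlap, a log2 fold change of -0.61 (SE 0.20). Of 11 nucleosome assembly and TSPY-like genes 2 were above 0 and 9 below, with a median of -0.17. Tspyl3, on another chromosome than Tspyl1 and Tspyl4, averaged 358 ± 90.7 against 567 ± 66.4 in the knockouts (SD, n = 3 each) without overlap, a log2 fold change of 0.69 (SE 0.28). Of 7 membrane-bound protein kinase C substrates 4 were above 0 and 3 below, of 4 nucleotidases of the Nt5dc1 family all were above 0, and of 3 short-chain collagens 1 was above 0. Over all genes 55.3% were above 0. WT 3 had the lowest sum of the heparan and dermatan sulfate enzymes, at 19420 against 26174 to 30358 in the other libraries. It was also lowest for the Nt5dc1 family (1985 against 2734 to 3643) and the kinases (6410 against 7183 to 8309). For the nucleosome assembly and TSPY-like genes it was highest (71644 against 44469 to 56438). It was at neither end for the other lists, and the counts were not repeated without it. Extl1 and Tspyl3 became calls by limma with array weights (adjusted p = 0.0482 and 0.0489), and Lamb1 did not. That setting called 3.08% of all genes tested, and groups did not overlap for 8.54% of all genes. Extl1, Lamb1 and Tspyl3 were picked from their lists by p, so their values do not describe the relatives as a whole.

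The genes whose levels ran most nearly parallel to Tspyl4 over the 6 libraries were Lipt2, Lamtor1 and Nadk2, with Pearson's r of 0.996, 0.995 and 0.989. For Hs3st5 they were Stim1, Irs2 and the pseudogene Sms-ps, with r of 0.990, 0.987 and 0.982. None of these lies on chromosome 10. With 6 libraries and 18410 genes such values are common: r was above 0.95 for 100 genes against Tspyl4 and for 37 against Hs3st5.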

How the data were processed

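The authors worked on mm10 with HISAT2, SAMtools, featureCounts and DESeq2 (submitters' processing notes). No version, annotation or strand setting is given in the sources used here. The deposited signal values are reads per gene after division by the size factor of each library: 100% were whole multiples of the library's smallest value above 0 (tolerance 0.01), which recovered the reads. Of 54532 identifiers 54495 matched GENCODE M21. The table's 6 columns were assigned by name and replicate number. The main test was limma 3.58.1 (R 4.3.3) on log2 (value + 1) with trend and robust variances, keeping the 18410 genes that reached 10 in 3 or more libraries, adjusted by Benjamini-Hochberg at 0.05. edgeR 4.0.16 and DESeq2 1.42.0 were run on recovered reads. The scripts were tested on simulated data.

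Members and lists were chosen with earlier results of these data known. Named genes were the 10 members, Hdac2, Avil, the 3 other window genes with the smallest p in each direction, up to 2 genes per family list with the smallest p (1 each is given for 3 lists), and the 3 genes nearest in pattern to the highest member and to any member without overlap. Ihh, Bglap, Matn3, 5930403N24Rik, Gm47512 and Trappc3l lie outside this rule and were named after their values were seen. Lists of fibroblast, macrophage, lymphocyte, skeletal muscle and erythroid markers were also summed: WT ranges were 49028 to 73664, 2104 to 4463, 198 to 1037, 9550 to 27316 and 2696 to 51825 normalised read counts, and Hdac2 cKO ranges 36751 to 77209, 2034 to 5250, 192 to 1176, 3529 to 6346 and 1315 to 75879.

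Deviations from group means correlated by 0.40, 0.15 and 0.42 between libraries numbered 1, 2 and 3, all over 0.1, so the replicate number was taken as a pairing, which rests on these values and on no label; WT 1 and Hdac2 cKO 2 correlated by 0.34. No replicates agreed within sampling noise (chi-square per gene at least 17.3).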

Additional observations from a re-analysis of the deposited data

How the results depend on the processing

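All alternatives were chosen with earlier results known, and under each of the 18 none of the 10 flanking genes was called. Apart from DESeq2, array weights and the fit without both libraries numbered 3, each alternative called 0 genes in all, Hdac2 included. In those settings a 0 for the members cannot set them apart from other genes. Marcks, Hs3st5, Tspyl1 and Dse kept their sign throughout, and Frk and Col10a1 could not be tested at a filter of 50. With each library left out in turn the log2 fold change ranged from -0.143 to 0.011 for Tspyl4, -0.33 to 0.45 for Lama4, -0.10 to 0.28 for Fyn, -0.093 to 0.47 for Nt5dc1 and -0.52 to 0.28 for Frk, and the median of the 10 from -0.032 to 0.24. Without both libraries numbered 3 it was 0.38 for Frk, -0.14 for Col10a1, 0.029 for Tspyl4, -0.12 for Lama4 and -0.070 for Fyn. With array weights it was 0.16 for Frk, -0.0018 for Lama4 and -0.14 for Fyn, and with a sex term 0.18 for Frk and -0.055 for Nt5dc1. The causes were not tested. Over the whole table, where limma called 0 genes, 25 were called by DESeq2, 5 without both libraries numbered 3 and 567 with array weights, which called Hdac2, Avil and, of the other window genes, 1, Calhm4. Fitted with the replicate block, limma called 0 members and 0 genes in all, and the smallest adjusted p among members was 0.674. The block changed no call, though limma's adjusted p for Hdac2 was 0.091 with it and 0.927 without it. Frk and Col10a1 had no more than 28 reads per library and the widest intervals of the 10.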

Other observations

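Reads outside the tested genes of the window also differed between libraries. The other 48 annotated genes of the stretch from 34 to 40 Mb, mostly pseudogenes and noncoding transcripts, did not pass the filter, and 19 of them were at 0 in all libraries. Together the 48 held 458 reads in WT 3 and 222 in Hdac2 cKO 3, against 34 to 73 in the other 4 libraries. WT 3 was the highest library for 10 of the 29 with any reads. The largest share lay in Gm47445, a single-exon model within the span of Dse, outside its exons and on the same strand. It measured 8.82, 7.44 and 182 normalised read counts across WT 1 to 3, against 2.02, 0 and 72.0 across Hdac2 cKO 1 to 3. The exons of Dse itself were lowest in WT 3 and in Hdac2 cKO 3 of their groups. Gm47445 was named after its values were seen, and the cause was not tested.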
